A study of Mus musculus with 221 samples.

Results

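The 8 genes followed here are regulators of stem cell identity, and they were measured through the hemogenic endothelium (HE) of mouse embryos, the endothelial cells that turn into blood. They are Mecom, Hlf, Hoxa5, Hoxa7, Hoxa9, Mllt3, Msi2 and Meis1. They were chosen by name and took in every transcript annotated to 1 of the 8 genes, which were 58 of 278369 transcripts and 8 of 78317 genes. In summed counts 7 of them were more than 2-fold higher in HE of the aorta-gonad-mesonephros region (AGM) than in HE YSP, 1 of the HE populations of the yolk sac, where 35.9% of 14103 genes were higher past 2-fold and 51.6% past it in either direction. Meis1 was not past 2-fold in these sums. Its lowest level in the 9 cell clusters was 51.7 CPM (a gene's counts scaled to a total of 1000000), in early HE YSP cells, with a 95% interval of 37.6 to 69.4.

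Blood forms from endothelium at several places in the embryo. The AGM gives rise to long-lived hematopoietic stem cells, and the yolk sac to earlier waves of erythro-myeloid and lympho-myeloid progenitors. The HoxA genes encode homeodomain transcription factors that lie side by side in a cluster and give cells their position along the body axis, and MEIS1, a homeodomain protein of the TALE class, binds DNA together with HOX proteins. Mecom encodes the zinc finger factor EVI1 and its longer form MDS1-EVI1, which maintain stem cells. Hlf encodes a PAR bZIP factor that marks stem cells of the embryo and the adult. Mllt3 encodes AF9, a reader of acylated histones that joins elongation and DOT1L complexes and upholds self-renewal, and Msi2 encodes an RNA-binding protein that controls translation in stem cells.

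The study used Nanopore long-read sequencing of amplified full-length cDNA from single cells of E9, E9.5 and E10.5 embryos. The embryos came from C57BL/6JOlaHsd males with a Gfi1-GFP or Runx1b-RFP reporter and wild-type Hsd:ICR (CD-1) females, and no cell was treated. HE AGM, from CDH5+ cells of the AGM, had 29 early and 20 late cells, and the yolk sac gave 2 HE populations, from lineage-negative KIT+ CD31+ endothelium. HE YSA had 23 early and 29 late cells and HE YSP had 25 early and 24 late cells. The later cells were 21 cells of an AGM cluster labelled HE-Hb, here called c5, 17 yolk sac progenitors labelled as skewed to the lympho-myeloid (LMP) fate, p1, and 20 labelled as skewed to the erythro-myeloid (EMP) fate, p2. HE YSP early, HE YSP late and p2 follow each other along 1 path, as do HE YSA early, HE YSA late and p1, and HE AGM early, HE AGM late and c5. The cells carried the clusters that the study found in its own analysis of expression.

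Of 221 labelled cells, 208 passed the library-size limit of 17595 estimated counts. Their totals ran from 18131 to 125339 counts, with medians of 59311 for HE AGM, 34483.5 for HE YSA and 33297 for HE YSP. The embryo of a cell is not named, so that each population was 1 sample and no test was made between populations. Levels are CPM of the summed counts of a population, with exact Poisson intervals at 95%, and shares have exact binomial intervals. All intervals cover counting error only, since PCR copies were not told apart by molecular identifiers, and they leave out the spread between embryos. Counts were not divided by transcript length, so that levels are compared between cells and not between genes. The AGM cells and all but 1 of the yolk sac cells came from different cDNA projects, so that tissue and project cannot be told apart. The AGM cells came from 3 such projects. The largest held 43 of the 49 HE AGM cells, and the other 6, of which 5 were from the Gfi1 reporter gate, all lay in the early cluster. The library names of 2 HE YSA cells hold AGM. Without these 2 and the 1 yolk sac cell of an AGM project, the count of calls between HE populations changed for Hoxa5 alone, which then had 6 counts over HE YSA and HE YSP, too few for a call. The stage was not given for 48 of 49 HE AGM cells. All 6 endothelium genes had counts in HE AGM, HE YSA and HE YSP. So did 6 blood genes, Runx1 and Gfi1 among them, save Ptprc in HE YSA and HE YSP. Gfi1 had no count in p1 or p2. Summed CPM of 8 erythroid genes was 45.7 in p1 and 4.10 in p2, and the highest HE AGM early cell reached 11877. No lymphoid genes were listed, and the LMP and EMP labels were not tested by markers. Arterial and yolk sac genes differed between the HE populations. Summed CPM of 8 arterial genes was 1009, 1217 and 220 in HE AGM, HE YSA and HE YSP, and that of 6 genes of yolk sac and venous endothelium, Lyve1 among them, was 2.10, 119 and 1221 in the same order. Arterial CPM fell from 1606 to 178 between HE AGM early and late. It went from 2212 to 432 in HE YSA and from 418 to 13.4 in HE YSP. The part of these genes in the results that follow was not tested.

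The sequences of the loci are shown first where the reads raised a question about the transcript or where 2 members moved together. On GRCm38 all 8 members lie on the minus strand. Hoxa5 (chr6:52201754-52204587), Hoxa7 (chr6:52214491-52221854) and Hoxa9 (chr6:52223100-52231089) are neighbours, and the others are Mecom (chr3:29951296-30548008), Mllt3 (chr4:87769925-88033364), Meis1 (chr11:18879817-19018985), Msi2 (chr11:88339382-88718513) and Hlf (chr11:90336536-90390895). Each of the 58 member transcripts matched GENCODE M21 by identifier and summed exon length. Most Mllt3 counts fell on Mllt3-206, a transcript of 966 bases annotated for nonsense-mediated decay. Of its 6 exons, 3 have the coordinates of exons of Mllt3-201, the transcript of 6069 bases that encodes full-length AF9 with 569 codons. The third exon of Mllt3-206 has no overlap with Mllt3-201 and carries the stop codon, in capitals here, at chr4:88011670-88011707 on the minus strand. Where Mllt3-206 ends, the next 30 bases of Mllt3-201, in its exon 5 at chr4:87841054-87841083, hold 15 A.
Mllt3-206 exon 3 up to its stop: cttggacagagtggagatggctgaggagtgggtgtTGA
Mllt3-201 exon 5 after the end of Mllt3-206: aaagaagaaaaaatagttcctaagatggcc

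The 250 bases before a start site are shown for Hoxa9, whose level followed that of Hoxa7, for Hlf, which was higher in late than in early HE, and for the internal start of Mllt3, from which its shorter coding transcripts begin. They are RefSeq start sites on GRCm38.p6, all on the minus strand, and no annotated exon overlaps these windows. A window before Hoxa7 or before a start of Mecom, Meis1 or Msi2 met an exon and is not shown. Letters known from 4 classes of factors were searched on both strands, and their share was taken over 32851 promoter windows of the same length. The RUNX letters TGTGGT occur in 14% of these windows. Those of the GATA class, AGATAA, occur in 9.99%. For the MEIS class TGACAG was used, which occurs in 15.9%, and for the ETS class CCGGAA, which occurs in 12% of windows. Hlf held 1 ETS match, 125 bases before the start, and the internal Mllt3 window 1 MEIS match on the reverse strand, 50 bases before it. The matches are in capitals. The Hoxa9 window held none of the letters.
Hoxa9, chr6:52227371-52227620: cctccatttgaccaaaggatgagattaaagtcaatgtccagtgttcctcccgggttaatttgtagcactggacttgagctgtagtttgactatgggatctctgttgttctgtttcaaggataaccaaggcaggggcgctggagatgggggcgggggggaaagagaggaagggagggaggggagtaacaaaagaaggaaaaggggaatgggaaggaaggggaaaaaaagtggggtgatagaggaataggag
Hlf, chr11:90390918-90391167: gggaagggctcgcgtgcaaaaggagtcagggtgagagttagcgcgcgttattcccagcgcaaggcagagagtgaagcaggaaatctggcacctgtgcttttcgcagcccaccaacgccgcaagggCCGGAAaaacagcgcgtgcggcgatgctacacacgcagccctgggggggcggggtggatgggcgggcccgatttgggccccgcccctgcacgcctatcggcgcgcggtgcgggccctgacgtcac
Mllt3 internal start, chr4:87806324-87806573: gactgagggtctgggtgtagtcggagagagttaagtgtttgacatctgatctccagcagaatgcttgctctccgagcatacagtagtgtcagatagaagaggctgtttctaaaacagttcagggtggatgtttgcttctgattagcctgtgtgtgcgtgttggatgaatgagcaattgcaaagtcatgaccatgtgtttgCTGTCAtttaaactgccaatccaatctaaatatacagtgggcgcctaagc

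Among the Hox genes, Hoxa9 was common in HE AGM and HE YSA and nearly absent from HE YSP. Its level was 77.5 CPM [68.3, 87.5] in HE AGM, 80.3 CPM [68.1, 94.1] in HE YSA and 3.59 CPM [1.32, 7.81] in HE YSP. It was found, with at least 1 count, in 37 of 49, 33 of 52 and 2 of 49 cells. Single cells ran from 0 to 544 CPM with a median of 59.1 in HE AGM and from 0 to 305 with a median of 48.6 in HE YSA, so that the cells of these populations overlapped. In HE YSP 5 of the 6 counts came from 1 cell, and neither p1 nor p2 had a count. AGM c5 kept 57.6 CPM [46.2, 71.1].

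Hoxa7, next to Hoxa9, had the same pattern. Its level was 35.4 CPM [29.3, 42.4] in HE AGM, 39.4 CPM [31, 49.3] in HE YSA and 0.598 CPM [0.0151, 3.33] in HE YSP, where a single count was found. The cells with Hoxa7 were 18 of 49, 16 of 52 and 1 of 49, and p1 and p2 again had none. The cell medians were 0 in each HE population, with highest cells at 495, 274 and 32.3 CPM. Hoxa5, the third HoxA member, was low throughout. It had 47 counts in HE AGM, at 14.1 CPM [10.4, 18.8], 9 in HE YSA, at 4.72 CPM [2.16, 8.97], and 1 in HE YSP. The 9 counts of HE YSA came from 2 cells, and 4 of them from the 1 yolk sac cell that was made in an AGM cDNA project. In HE AGM 43 of the 47 Hoxa5 counts lay in early cells, 26 of them in the 6 cells outside the largest AGM project. Without these cells HE AGM early stood at 11 CPM of Hoxa5 [6.41, 17.6] in place of 22.2 CPM. AGM c5 had 21 Hoxa5 counts, 9 of them in 1 cell, and beside them 175 CPM of 7 mesenchyme genes, of which Dlk1 gave 172 CPM and Pdgfra, Col1a1, Col3a1, Ptn and Twist1 none.

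Meis1, the partner of the Hox proteins, was the least restricted of the members. Its level was 126 CPM [114, 139] in HE AGM, 108 CPM [93.8, 124] in HE YSA and 73.0 CPM [60.6, 87.1] in HE YSP, and it was found in 41 of 49, 30 of 52 and 22 of 49 cells. Single cells reached 505, 530 and 465 CPM, with medians of 112, 50.1 and 0. Both progenitor clusters without a HoxA count had Meis1, with 107 CPM [83.1, 135] in 11 of 17 p1 cells and 87.4 CPM [67.3, 112] in 14 of 20 p2 cells. In the order of the 9 clusters no neighbours had Meis1 intervals that failed to overlap.

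Mecom formed a gradient over the clusters. Its levels in falling order were those of HE AGM early at 222 CPM [201, 244], HE YSA early at 137 CPM [113, 164], HE YSA late at 89.2 CPM [72.2, 109], HE AGM late at 69.8 CPM [56.6, 85.1], HE YSP early at 28.2 CPM [18.1, 42.0] and c5 at 24.5 CPM [17.3, 33.8]. HE YSP late, p1 and p2 had no count, with upper interval ends of 4.49, 5.62 and 5.04 CPM. The intervals of neighbours in this order did not overlap between HE AGM early and HE YSA early, HE YSA early and late, HE AGM late and HE YSP early, and c5 and HE YSP late, and the quartile ranges of their cells overlapped throughout. Within the largest AGM project, HE AGM early had 187 CPM [166, 210], still the highest level. Over the HE populations Mecom was found in 40 of 49, 32 of 52 and 7 of 49 cells. Cells of HE AGM ran from 0 to 875 CPM with a median of 118, those of HE YSA from 0 to 546 with a median of 73.9, and those of HE YSP from 0 to 333 with a median of 0. In c5, 16 of 37 counts came from 1 cell.

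Hlf was higher in late than in early cells. HE AGM had 13.4 CPM [8.76, 19.6] early and 61.8 CPM [49.5, 76.4] late, HE YSA 3.57 CPM [0.736, 10.4] early and 31.9 CPM [22.1, 44.6] late, and c5 46.4 CPM [36.2, 58.6]. It was found in 6 of 29 and 14 of 20 HE AGM cells, in 1 of 23 and 10 of 29 HE YSA cells and in 12 of 21 c5 cells. Only 3 counts were found in the 49 HE YSP cells, 1 in p1 and none in p2. The cell medians of Hlf were 0 in HE AGM and HE YSA and the highest cells at 246 and 288 CPM, so that the cells of these populations overlapped.

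Mllt3 was found in 39 of 49 HE AGM cells, 30 of 52 HE YSA cells and 10 of 49 HE YSP cells. Its levels were 144 CPM [132, 158], 118 CPM [103, 134] and 28.7 CPM [21.2, 38.1], and single cells ran from 0 to 956, 829 and 325 CPM, with medians of 91.7, 49.1 and 0. Of the 481 HE AGM counts, 156 came from 5 early cells of 1 of the smaller AGM projects, and within the largest project HE AGM stood at 108 CPM. Mllt3 was at 59.6 CPM [47.9, 73.3] in c5, 9.14 CPM [3.35, 19.9] in p1 and 2.73 CPM [0.331, 9.86] in p2. Msi2 was at 34.8 CPM [28.8, 41.8] in HE AGM, 12.6 CPM [8.07, 18.7] in HE YSA and 4.19 CPM [1.68, 8.63] in HE YSP. It reached its highest cluster level in c5, with 78.2 CPM [64.7, 93.6] in 14 of 21 cells, and p2 had 16.4 CPM [8.47, 28.6] from 4 of 20 cells. Cell medians of Msi2 were 0 in each HE population, and the highest cells stood at 243, 195 and 96.8 CPM. Of the 24 Msi2 counts of HE YSA, 11 came from 1 cell.

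**Figure D1:**
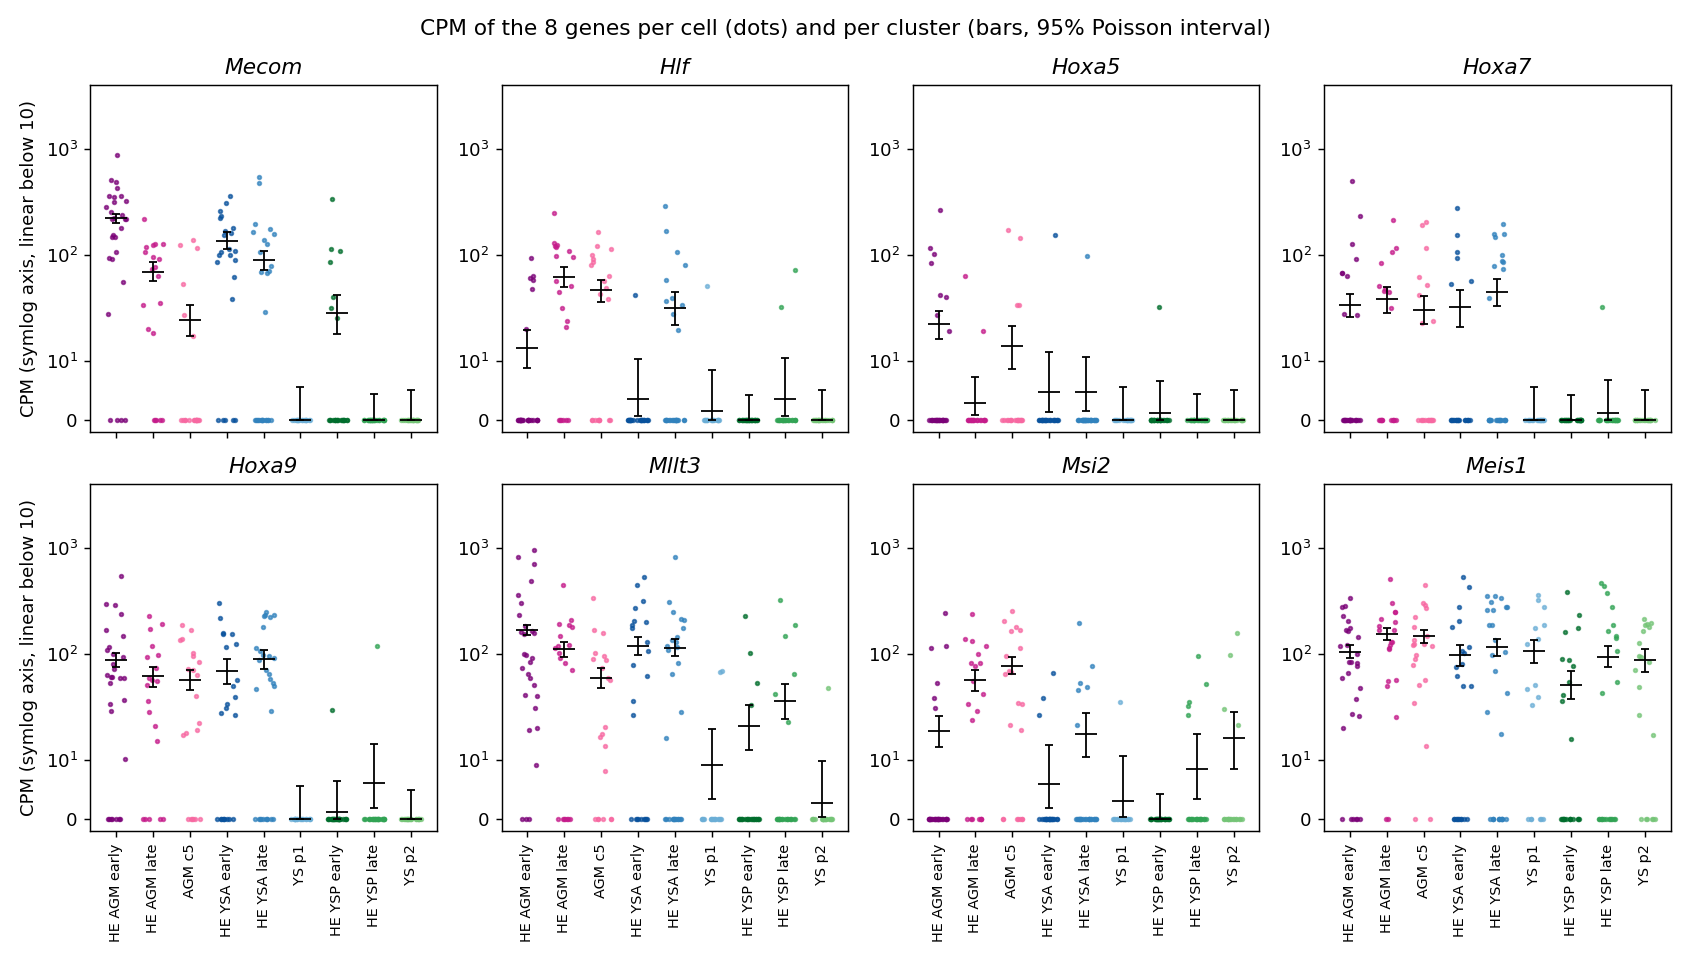
CPM of each of the 8 members (vertical axis, log scale above 10 CPM and linear below) in the 9 cell clusters, with 1 dot for each cell and a black line with its exact 95% Poisson interval for the summed counts of the cluster. Mecom is highest in HE AGM early at 222 CPM, and HoxA genes are at or near 0 in HE YSP and in both yolk sac progenitor clusters. Meis1 is lowest in HE YSP early, at 51.7 CPM [37.6, 69.4].

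Fewer members were found together in HE YSP cells than in most HE AGM and HE YSA cells, and the last 2 overlapped. A cell of HE AGM had a median of 4 of the 8 members with a range of 2 to 7, a cell of HE YSA 3 with a range of 0 to 6, and a cell of HE YSP 1 with a range of 0 to 3. At least 4 members were found in 37 of 49, 20 of 52 and 0 of 49 cells, and no member at all in 0, 2 and 17 cells. With the 0 of 49 cells taken as 3 cells, the share would be 6.12%. Among the later cells, c5 had a median of 5 with at least 4 members in 16 of 21 cells, and p1 and p2 had a median of 1 and at most 2. HE AGM cells were deeper. With each cell thinned to 17595 counts the medians were 3 for HE AGM, 2.5 for HE YSA and 1 for HE YSP, at least 4 members were found in 24, 12 and 0 cells, and Hoxa9 was found in 24, 26 and 2 cells, so that its share was no longer higher in HE AGM than in HE YSA.

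**Figure D2:**
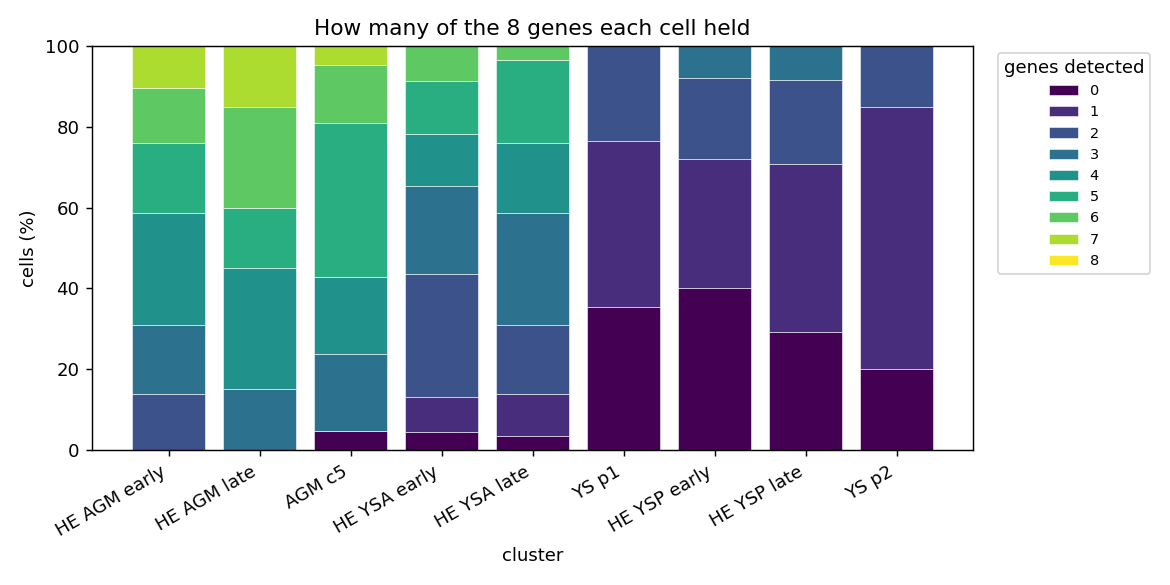
Share of cells (vertical axis, %) in each of the 9 clusters (horizontal axis) by the number of the 8 members with at least 1 count, shown by colour from 0 to 8. HE YSP cells have 0 to 3 members and HE AGM cells 2 to 7.

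For each of the 28 pairs of members, the cells in which both were found were set against the product of their shares. In HE AGM the difference ran from -3.12 to 3.16 cells with a median of 0.52 cells, and in HE YSA from -1.35 to 4.77 cells with a median of 0.673 cells. Furthest above the product were Hoxa7 and Mllt3 in HE YSA, found together in 14 cells against 9.23, and Mecom and Mllt3 in HE AGM, in 35 cells against 31.8. Furthest below it were Mllt3 and Msi2 in HE AGM, in 12 cells against 15.1. Hoxa7 and Hoxa9 were found together in 14 HE AGM cells against 13.6 and in 12 HE YSA cells against 10.2. These counts were not tested, since cells of different depth share 1 population.

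The 3 HE populations were then compared by the log2 ratio of their CPM, with 0.5 counts added to each sum. A member was called when its ratio passed 2-fold in either direction and both populations together held at least 10 counts. The comparisons share populations, so that their values are given side by side and not related to each other. HE AGM over HE YSP had 7 members higher past 2-fold and none lower, where 35.9% of 14103 genes were higher, 15.7% lower and 51.6% past 2-fold in either direction. HE YSA over HE YSP also had 7 higher and none lower, where 15.2% of 12230 genes were higher, 12.2% lower and 27.4% either. HE AGM over HE YSA had 2 higher and none lower, where 33% of 14297 genes were higher, 15.5% lower and 48.5% either, so that the members' share of higher calls, 25%, was below that of all genes. With HE AGM cells of the largest project alone, HE AGM over HE YSP again had 7 higher, where 34.4% of genes were higher, 16.8% lower and 51.2% either. HE AGM over HE YSA then had 1 higher, Msi2, where 31.2% were higher, 16.3% lower and 47.5% either. The median log2 ratio of the 8 members was 3.71 for HE AGM over HE YSP, where that of all genes was 0.41, 2.69 for HE YSA over HE YSP, where it was 0.02, and 0.41 for HE AGM over HE YSA, where it was 0.31.

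Hoxa7 had the largest log2 ratio over HE YSP, at 5.31 [3.38, 11.20] for HE AGM and 5.46 [3.52, 11.36] for HE YSA, resting on the single count in HE YSP. Hoxa9 gave 4.32 [3.29, 5.89] and 4.37 [3.33, 5.95]. Mecom gave 3.43 [2.87, 4.12] and 2.91 [2.33, 3.61], and Hlf 4.01 [2.64, 6.53] and 3.23 [1.78, 5.78]. Mllt3 gave 2.32 [1.90, 2.79] and 2.02 [1.58, 2.52]. The lower bounds of these 5 members lay past 2-fold in both comparisons. Less firm were Hoxa5, with 3.99 [2.01, 9.89] and 2.47 [0.13, 8.44], and Msi2, with 2.96 [1.97, 4.40] and 1.52 [0.33, 3.05]. Meis1 was not past 2-fold over HE YSP, with 0.79 [0.50, 1.09] for HE AGM and 0.56 [0.24, 0.90] for HE YSA. It passed 2-fold in some settings, for HE AGM in run 2 at 1.62, in early clusters at 1.01, against yolk sac cells of E10.5 at 1.00 and with size factors at 1.01, and for HE YSA in cells of E10.5 at 1.04.

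HE AGM and HE YSA differed little in the HoxA pair. Hoxa9 had a log2 ratio of -0.05 [-0.35, 0.25] and Hoxa7 one of -0.15 [-0.58, 0.29], and Meis1 one of 0.22 [-0.02, 0.47]. These intervals end inside a 2-fold difference. With size factors in place of totals Hoxa9 and Hoxa7 were at 0.15 and 0.05, on the other side of 0, and Meis1 was at 1.47 in run 2 and -0.46 in run 1. Mecom was higher in HE AGM by 0.52 [0.29, 0.76] and Mllt3 by 0.30 [0.07, 0.53], short of 2-fold. For Mecom the 3 Nanopore runs gave 1.10, -0.04 and 0.27, so that the direction was not the same in each run. In late clusters alone Mecom was lower in HE AGM, with 69.8 against 89.2 CPM, a log2 ratio of -0.35. Within the largest AGM project Mecom was at 0.25 and Mllt3 at -0.12, on the other side of 0. Hlf gave 0.78 [0.24, 1.37], with 2.03, 0.06 and 0.15 in the runs, and 1.86 from protein-coding transcripts alone. Past 2-fold were Hoxa5, at 1.52 [0.53, 2.79], and Msi2, at 1.44 [0.82, 2.17]. In late clusters alone Hoxa5 turned to -0.67, from 4 and 5 counts, and within the largest AGM project it was no longer past 2-fold, at 0.55. Msi2 was carried by runs 1 and 2, with 2.29 and 3.25, and gave 0.20 in run 3.

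**Figure D3:**
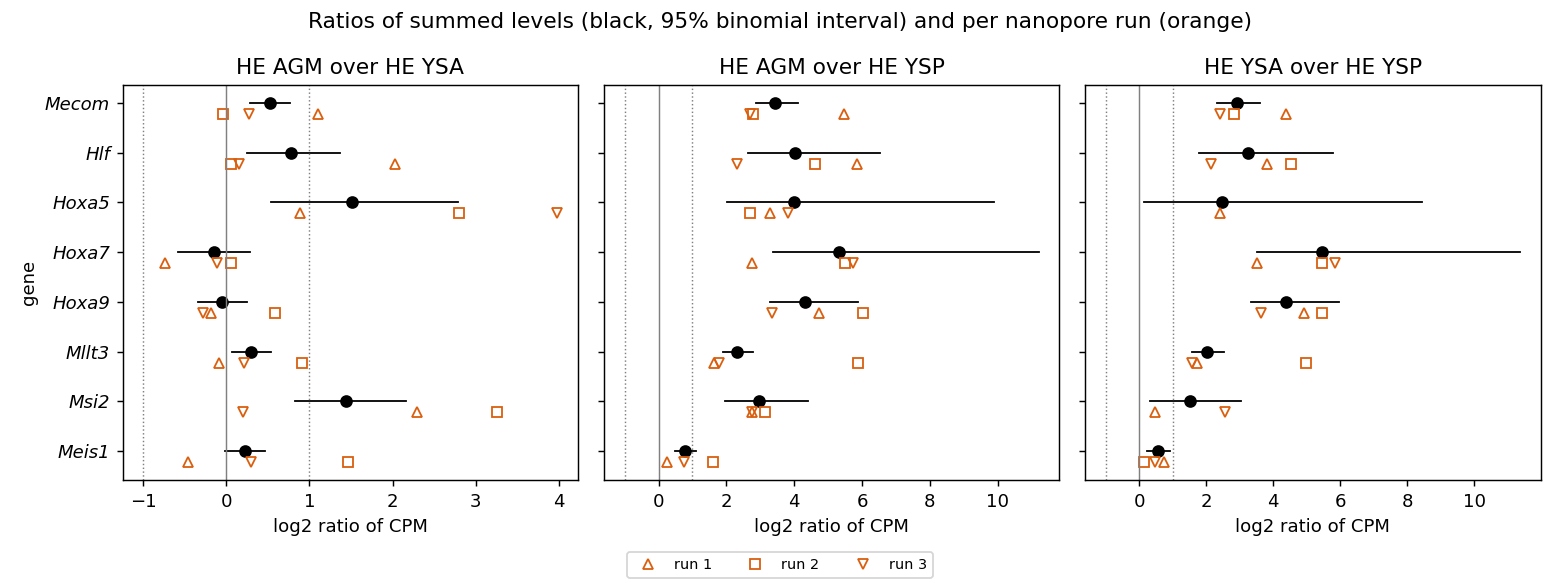
Log2 ratio of CPM (horizontal axis) for each member in the 3 comparisons of HE populations, in black with 95% intervals from counting error and in orange for each of the 3 Nanopore runs, with dotted lines at 2-fold. Over HE YSP 7 of 8 members lie past 2-fold, and for HE AGM over HE YSA the black points of Hoxa7, Hoxa9 and Meis1 lie around 0.

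Yolk sac cells differ in stage and sort gate as well as in population. In HE YSA the 14 cells of E9.5 had 2 Hoxa7 counts, at 4.13 CPM [0.501, 14.9], and the 35 cells of E10.5 had 73, at 54.0 CPM [42.3, 67.9]. Hoxa9 was at 41.3 CPM [25.2, 63.8] and 95.5 CPM [79.7, 113], Mllt3 at 59.9 CPM [40.1, 86.1] and 139 CPM [120, 160], and Meis1 at 57.9 CPM [38.5, 83.6] and 130 CPM [111, 150]. Mecom was at 99.2 CPM [73.1, 132] and 116 CPM [98.7, 136], whose intervals overlap. Stage and embryo cannot be told apart in these values. Among the 20 HE YSP cells of E10.5, no Hoxa7 count and 6 Hoxa9 counts were found, at 7.20 CPM [2.64, 15.7], so that the HoxA difference between HE YSA and HE YSP stood within that stage.

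The sort gate was uneven too, with the Gfi1 reporter gate in 47 of 52 HE YSA and 13 of 49 HE YSP cells. Both Hoxa9-positive HE YSP cells were from that gate. Within it, Hoxa9 was at 83.3 CPM [70.5, 97.9] in HE YSA and 13.7 CPM [5.04, 29.9] in HE YSP, a log2 ratio of 2.49 where all cells gave 4.37. Mecom stood at 112 CPM [97.0, 129] and 4.58 CPM [0.554, 16.5] within the gate, and Mllt3 at 121 CPM [105, 138] and 48.1 CPM [29.8, 73.5]. In this gate 5 members were higher past 2-fold and none lower, where 23.3% of 10661 genes were higher, 13.6% lower and 36.9% either, and Hoxa5 and Msi2 were not called. Of the 5, Hlf was at 2.62 [0.62, 8.53], from 1 HE YSP count, and Mllt3 at 1.30 [0.68, 2.05]. The lower bounds of Hlf and Mllt3 were thus not past 2-fold within the gate.

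In HE AGM the step from early to late HE divided the members. From HE AGM early to late, Hlf and Msi2 were higher past 2-fold, by log2 ratios of 2.19 and 1.56, where 11% of 12855 genes were higher, and Mecom and Hoxa5 lower, by -1.66 and -2.79, where 20.9% were lower and 31.9% either. Within the largest AGM project the same 4 were past 2-fold, Hlf at 2.54, Msi2 at 2.04, Mecom at -1.42 and Hoxa5 at -1.81, where 12.4% of genes were higher, 18.5% lower and 30.9% either. In HE YSA the same 2 were higher, Hlf at 2.96 [1.49, 5.51] from 3 early counts and Msi2 at 1.48 [0.12, 3.36] from 5 early counts. Here 15.1% of 10135 genes were higher. None of 7 members with enough counts was lower, where 14.9% were lower and 30% either. Of the 19 late Msi2 counts 11 came from 1 cell. Without the cell with most counts in each cluster, Msi2 had 8 late and 2 early counts, with an interval of -0.67 to 4.93. Mecom in HE YSA went from 137 to 89.2 CPM, short of 2-fold. In HE YSP only 3 members had enough counts, and Mecom, with 24 early and 0 late counts, was 7.72-fold lower with the 0 taken as 3 counts. The upper end of its log2 interval was -2.54. Of the 24 counts 10 came from 1 cell, without which that fold was 4.67 and that end -1.73. Here 16.5% of 9425 genes were lower, 16.7% higher and 33.2% either.

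The step from late HE to the later cells shares the late cluster with the comparison before it. In the yolk sac the sort gate differed along this step. The Gfi1 reporter gate held 29 of 29 HE YSA late cells and 5 of 17 p1 cells. It held 10 of 24 HE YSP late cells and 2 of 20 p2 cells, and the part of the gate was not tested. AGM c5 over HE AGM late had Hoxa5 higher, at 2.14 from 4 counts in HE AGM late, where 12.7% of 11783 genes were higher, and Mecom lower, at -1.50, where 17.9% were lower and 30.7% either. On the HE YSA path 6 of 7 members were lower in p1 than in HE YSA late and none higher, where 21.4% of 9511 genes were lower, 13% higher and 34.4% either. With their 0 counts in p1 taken as 3, Mecom and Hoxa9 were each 19.5-fold lower and Hoxa7 9.86-fold lower. The upper ends of their log2 intervals were -3.96, -3.96 and -2.95. Hlf, Mllt3 and Msi2 had log2 ratios of -3.83, -3.55 and -2.27. Meis1 alone of the 7 was not past 2-fold, at -0.12. Between HE YSP late and p2, Mllt3 was lower, at -3.44 with 2 counts in p2, where 16.4% of 8831 genes were lower, 10.9% higher and 27.3% either, and Meis1 and Msi2 were not past 2-fold, at -0.12 and 0.90. Without the cell with most counts of a member in each cluster, Mllt3 also passed 2-fold from HE AGM late to c5, from -0.89 to -1.18. Msi2 then had 8 counts left in HE YSA late and 0 in p1, too few for a call.

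The reads also told the transcripts of a member apart, as far as they could be placed. NanoCount splits a read that matches several transcripts, and values that were not whole held 61.0% of Mecom and 61.3% of Meis1 counts, 26.3% of Hoxa7, 6.55% of Hoxa9, 3.59% of Hlf and 0.118% of Mllt3 counts. None did for Msi2 or for Hoxa5, which has 1 transcript. Shares of Mecom and Meis1 transcripts thus rest on the way reads were split.

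Most Mllt3 counts did not come from the full-length coding transcript. Mllt3-206, whose extra exon is printed with the loci, had 348 of 481 counts in HE AGM, or 72.3% [68.1, 76.3], 181 of 224 in HE YSA, or 80.8% [75, 85.7], and 29 of 48 in HE YSP, or 60.4% [45.3, 74.2]. It was found in 33 of the 39 HE AGM cells with Mllt3. Mllt3-201 had 22 counts in 5 HE AGM cells, or 4.57% [2.89, 6.84], and none in HE YSA or HE YSP. The interval for 0 of 224 HE YSA counts ended at 1.63%. Mllt3-206 is much the shorter of these transcripts, and the part of read length in these shares was not tested. Transcripts from the internal start, Mllt3-202 and Mllt3-208, took 20.8% of counts in HE AGM early [16.5, 25.6] and 27.3% late [20.4, 35.0], and 8.91% in HE YSA early [4.16, 16.2] and 23.6% late [16.4, 32.1]. The early and late intervals of HE YSA did not overlap.

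Hlf and Hoxa7 differed in their transcripts between HE AGM and HE YSA. The coding transcript Hlf-201 had 65.2% of Hlf counts in HE AGM [55.6, 73.9] and 27% in HE YSA [13.8, 44.1], where it had 10 of 37 counts. Another 10 of these 37 were Hlf-205 counts of 1 cell. The HE AGM runs gave 57.7%, 70% and 72.5% and the HE YSA runs 62.5%, 41.7% and 0%, so that the share was lower in HE YSA in runs 2 and 3. Hoxa7-202, with 156 codons, had 50% of Hoxa7 counts in HE AGM [40.7, 59.3] and 78.7% in HE YSA [67.7, 87.3]. The HE AGM runs gave 88.9%, 31.6% and 49.9% and the HE YSA runs 80.0%, 87.0% and 71.9%, so that run 1 went the other way. Hoxa9-201 was the main Hoxa9 transcript in both, with 71.3% [65.4, 76.8] and 66.0% [57.9, 73.5].

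Meis1 and Mecom transcripts were more widely spread. Meis1-201 led in HE AGM with 43.2% [38.3, 48.0], in HE YSA with 49.1% [42.0, 56.1] and in HE YSP with 60% [50.6, 68.6]. Meis1-203 took 26.3% [22.3, 30.9] of HE AGM counts, 10.4% [6.42, 15.2] of HE YSA counts and 11.8% [6.42, 18.5] of HE YSP counts, and its share was higher in HE AGM than in HE YSA in each of the 3 runs. The intron-retaining Meis1-205 had 2.14% [0.984, 4.03], 13.1% [8.82, 18.5] and 15.6% [9.64, 23.2] of counts in these populations, from 2, 4 and 4 cells. Of Mecom counts, 1 group of neighbouring starts on the EVI1 side of the gene took 46.4% [42.2, 50.9] for HE AGM and 31.8% [25.7, 38.7] for HE YSA. These were Mecom-202, Mecom-205, Mecom-206, Mecom-214 and Mecom-216. In run 1 they took 31.4% and 36.3%, the other direction. Mecom-204 and Mecom-215, which start further downstream and are not in this group, took 0.38% and 3.10%. Mecom-203, which starts further upstream, took 14.2% and 15.2%. Annotated genes on the opposite strand overlap Mecom, Hoxa5, Hoxa7, Meis1 and Msi2. Whether the counting used strand is not given in the sources used here, so that reads of such pairs may not have been told apart.

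**Figure D4:**
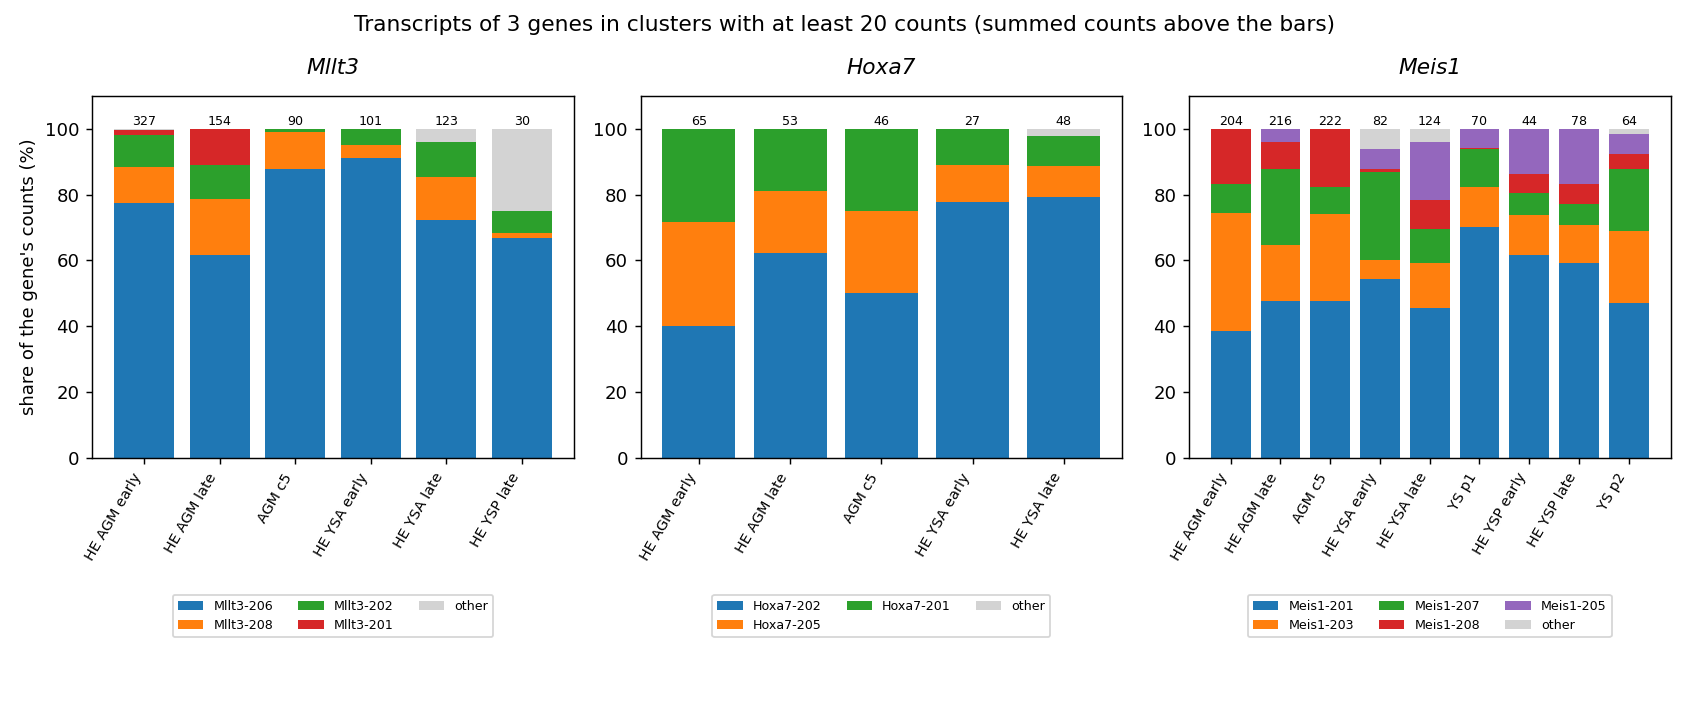
Share of a gene's counts (%) by transcript for Mllt3, Hoxa7 and Meis1 in clusters with at least 20 counts, whose summed counts stand above the bars. Mllt3-206 takes most Mllt3 counts in each cluster shown, and Hoxa7-202 takes a larger share in the HE YSA clusters than in the AGM clusters.

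The other genes of the Hox and TALE families were read against the same calls. Of the other HoxA genes only Hoxa10 had enough counts. Named after its values were seen, it had 10 HE AGM counts, at 3.00 CPM, 33 in HE YSA, at 17.3 CPM, and none in HE YSP, so that it was at least 9.65-fold higher in HE YSA than in HE YSP. The HoxB genes did not share the HoxA pattern. Of 5 with enough counts, 3 were lower in HE AGM than in HE YSP and none higher, where 15.7% and 35.9% of all genes were. In HE YSA 3 were lower than in HE YSP and 1 higher, where 12.2% and 15.2% of all genes were. Between HE AGM and HE YSA 1 was higher in HE AGM and none lower, where 33% and 15.5% were. Hoxb2 stood at 13.8, 19.9 and 44.9 CPM in HE AGM, HE YSA and HE YSP, with log2 ratios over HE YSP of -1.69 and -1.16, and Hoxb5 went from 4.51 CPM in HE AGM to 22.7 in HE YSP, at -2.31. No HoxC gene had 10 counts. Of the HoxD genes only Hoxd8, also named after its values were seen, had enough, with 10 counts in HE AGM, all in early cells, 8 in HE YSA and none in HE YSP. Its levels in HE AGM and HE YSA were 3.00 and 4.20 CPM.

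Most other genes of the TALE class stood higher in HE AGM than in HE YSP, and against HE YSA they went both ways. Of the TALE genes other than Meis1, 6 of 7 were higher in HE AGM than in HE YSP and none lower, where 35.9% of all genes were higher. In HE YSA 3 of 7 were higher than in HE YSP, where 15.2% were. Against HE YSA 2 of 8 were higher in HE AGM and 2 lower, where 33% and 15.5% of all genes were. Pbx2, which encodes a partner of HOX and MEIS proteins, was at 80.5, 22 and 10.2 CPM in HE AGM, HE YSA and HE YSP. Its log2 ratios were 1.85 for HE AGM over HE YSA, 2.95 for HE AGM over HE YSP and 1.09 for HE YSA over HE YSP. Of the partners of AF9 in elongation and DOT1L complexes, 3 of 10 were higher in HE AGM than in HE YSA and none lower, a share of higher calls close to the 33% of all genes. Over HE YSP 6 of 10 were higher and 1 lower, where 35.9% and 15.7% of all genes were. Dot1l, the histone H3 lysine methyltransferase of that complex, had a log2 ratio of 1.47 for HE AGM over HE YSP. A separate list held 6 relatives of the members. Of these, 3 of 6 were higher in HE AGM than in HE YSA and 1 lower, where 33% and 15.5% of all genes were. Over HE YSP 3 of 5 were higher and 0 lower, where 35.9% and 15.7% were. Among the relatives, Mllt1, which encodes ENL, the close relative of AF9, was at 36.6, 8.40 and 4.79 CPM. It was called higher in HE AGM over both, at 2.09 and 2.86.

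Over the 9 cluster levels, the members with the most alike patterns were Hoxa7 and Hoxa9, with Pearson's r of 0.98, and Hoxa9 and Mllt3, with 0.95. Msi2 and Meis1 had 0.89, and Mecom was least like Meis1, at 0.19, and Msi2, at 0.22. Among 8462 genes with at least 100 counts, the gene most like Hoxa7 was Smg5, at 0.99, with Hoxa9 next. Tut4 was most like Hoxa9, at 0.99, and Vwf, the von Willebrand factor gene, had 0.97. Mecom was most like Peg3 and Nr4a1, both at 0.98, and Yap1, at 0.97. The first for Hlf was Bora, at 0.97, for Mllt3 Zfp521, at 0.97, for Msi2 Ptp4a1, at 0.97, and for Meis1 Nnt, at 0.99. These values are over 9 clusters that share Nanopore runs and, within a tissue, cDNA projects, and they describe the pattern alone.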

How the data were processed

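Per the study's methods, the authors called bases with Dorado and trimmed reads with bbduk. Chimeras were taken out by YACRD and porechop. Alignment to GENCODE transcripts was by minimap2 2.26, several alignments a read were kept, and NanoCount made the values. The deposited values are estimated counts per transcript and cell, made by the authors without normalization, and some are fractions of a read. They were used here, and the deposited TPM table was not. Cells were grouped by the labels, and cells with fewer than 17595 counts, the median less 1 scaled median absolute deviation, were left out as in the study's methods. The cells kept had 18131 to 125339 counts.

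Counts were summed per gene and population. Intervals at 95% are exact Poisson or binomial intervals of rounded sums. Log2 ratios had 0.5 counts added to each sum, a sum of 0 was taken as 3 counts for folds and for the share of cells, and calls needed 2-fold and 10 counts. Transcript shares needed 20 counts, and genes in the search for like patterns 100. Thinning used random seed 1. A gene outside the members was named when it passed 2-fold with at least 50 counts in its list. Hoxa10 and Hoxd8 were chosen after their values were seen. A further gene that met the rule is not reported here. The members and lists were chosen with earlier results of these data known. The ratios were checked on simulated Poisson counts. Those held no PCR copies and no spread between cells, so that the check does not cover either. Alternatives covered the library-size limit, thinning, DESeq2 1.42.0 size factors, added counts, the minimum, runs, stages, clusters, transcripts and, added after seeing the data, sort gates, the largest AGM project and left-out cells. R 4.3.3 and Python 3.11.15 were used, with scipy 1.17.1 for intervals and pandas 2.3.3 and numpy 2.4.6 for sums.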

Additional observations from a re-analysis of the deposited data

Results flagged for a closer look

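The 13 cells below the library-size limit were in no comparison. Together they held 4 Meis1 counts, above the 3 counts that a count of 0 was taken as.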

How the results depend on the processing

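Of 55 counts of members past 2-fold under other settings, 48 stayed within 1.5 times the reported count. For HE AGM over HE YSA the count of 2 became 1 in run 3 alone, 1 in late clusters alone and 1 with HE AGM cells of the largest cDNA project alone, a setting tried after seeing the data, in which Hoxa5 was at 0.55. For HE AGM over HE YSP the count of 7 became 4 when each population had to hold more than 3 counts, in place of 10 in all, since Hlf, Hoxa5 and Hoxa7 then had no value. For HE YSA over HE YSP the count of 7 became 4 under the same rule, 4 in early clusters alone and 3 in the Runx1 sort gate alone. That gate, tried after seeing the data, left 4 HE YSA cells. Its 3 calls were Mecom and Mllt3, which were higher, and Meis1, which was lower at -1.02 and was not among the 7. Of 428 log2 ratios under other settings 20 lay on the other side of 0 from the reported one, 19 of them for HE AGM over HE YSA. Of the ratios reported as past 2-fold 1 did, that of Hoxa5 for HE AGM over HE YSA, at -0.67 in late clusters alone, with 9 counts. The other 18 of that comparison were of Mecom, Hoxa7, Hoxa9, Mllt3 and Meis1. Size factors from DESeq2 moved each ratio of HE AGM up, Mecom over HE YSA from 0.52 to 0.72, and Meis1 over HE YSP from 0.79 to 1.01, past 2-fold. With protein-coding transcripts only, Hlf was higher in HE AGM than in HE YSA by 1.86, where all transcripts gave 0.78. The causes were not tested. No paired analysis was possible because no label ties cells of different populations to an embryo and no result comes from a test. Populations of 17 to 52 cells hold 3 counts or fewer of several members in HE YSP, p1 and p2, so that low levels there were not told apart at this depth.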
